A study of Mus musculus with 6 samples.

Results

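The genes described here are 144 protein coding genes that lie in 3 stretches of the mouse genome and were expressed in corneal epithelium. Of the 25006 genes in the count table, 309 start on chromosome 14 between 0 and 20 Mb, on chromosome 2 between 121 and 129 Mb or on chromosome 12 between 70 and 80 Mb (GRCm38, GENCODE M21). Of these, 277 are protein coding, and those with a mean of at least 1 CPM over the 6 libraries were taken, where CPM is the number of counts per 1000000 counts of a library. The rule left out 5 genes inside the stretch on chromosome 2, the dual oxidase genes Duox1 and Duox2, their maturation factors Duoxa1 and Duoxa2, and AA467197. This left 28 genes on chromosome 14, 62 on chromosome 2 and 54 on chromosome 12, all 144 of which were among the 12847 genes tested. The 3 stretches were picked because differences between the genotypes had been seen to cluster there in these same libraries. The genotype differences of the genes are therefore given as a description. Counts of them past a threshold stand beside the share of all tested genes, and nothing is read from a test on this contrast.

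RNA came from the corneal epithelium, the layered sheet of cells that covers the front of the eye, of 3 wild type samples and 3 samples labelled EphA2 null. EphA2 is a receptor kinase of the cell surface whose ephrin-A ligands sit on adjacent cells. For the null allele, strain, age and sex of the mice, the information is not given in the sources used here. Whether the samples came from separate animals is not stated either, so a p-value measures only how these samples vary, and that variation may be technical. Each sample title carries a number of unstated meaning, shared by wild type 1 and 2 and by EphA2 null 2 and 3. A letter, also of unstated meaning, follows the number and differs between samples that share a number. It is N and R for wild type 1 and 2, and B and N for EphA2 null 2 and 3. Wild type 1, wild type 2 and EphA2 null 1 have lower numbers, wild type 3, EphA2 null 2 and EphA2 null 3 have higher ones, and the libraries are known to separate by that range.

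A library holds between 15308013 and 27586942 counts. Epha2 itself, on chromosome 4 and outside all 3 stretches, was at 298, 253 and 562 CPM in wild type 1, 2 and 3 and at 284, 652 and 578 CPM in EphA2 null 1, 2 and 3. Its level does not show the labelled genotype, so "EphA2 null" here always means a library labelled so, and every direction rests on the label. The corneal keratin gene Krt12 was at 13056 to 16016 CPM in all 6 libraries. Markers of stromal keratocytes summed to 1.55 CPM or less, with Kera and Lum at 0. Leukocyte markers summed to between 39.4 and 44.8 CPM in the lower and between 24.1 and 29.9 CPM in the higher range of title numbers. Markers of conjunctiva (Krt13, Krt4, Krt19 and Muc5ac) summed to between 4589 and 5944 CPM in the lower and between 3105 and 5682 CPM in the higher range. Krt4 was at 674, 1761 and 657 CPM in wild type 3, EphA2 null 2 and EphA2 null 3. How much conjunctiva the samples held was not tested.

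Genes that sit close together on a chromosome are inherited together. When a mutation made in one mouse strain is crossed into another, stretches of the first strain's DNA can remain beside the mutation and elsewhere, and genes inside such a stretch can differ in level, upwards or downwards, through sequence differences that have no link to the mutated gene. The 3 stretches were proposed as possible segments of this kind. The table gives counts per gene and no sequence variants, so the strain origin of the stretches was not tested.

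The genes were chosen by position and not by function. They include hormone receptors, ubiquitin enzymes, subunits of the proteasome and ribosome, metabolic enzymes, vesicle traffic proteins and cytoskeletal proteins. Mean levels ran from 1.04 to 5303 CPM with a median of 27.7 CPM, against a median of 24.6 CPM over all tested genes. The least covered member had 133 counts over the 6 libraries and the lowest count in a single library was 6. Just inside the threshold of 1 CPM lay Gm49355 at 1.04 CPM and the hormone subunit gene Gphb5 at 1.26 CPM. Just outside it lay Akap5 at 0.989 CPM and the microtubule-associated protein gene Map1a at 0.874 CPM.

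The sizes of the genotype differences were unequal between the 3 stretches. A difference is the log2 of the level in EphA2 null over wild type, from a model that also holds the title number range, with its standard error (SE, n = 3 per group). On chromosome 14, 16 of the 28 genes differed by at least 0.3 on this scale, 7 higher and 9 lower in EphA2 null. On chromosome 2 it was 9 of 62 genes (6 higher and 3 lower) and on chromosome 12 it was 10 of 54 (6 higher and 4 lower). Over all tested genes the share was 12%, with 5.86% higher and 6.16% lower, against 57.1%, 14.5% and 18.5% in the 3 stretches. The median size of the difference, without its sign, was 0.32 on chromosome 14, 0.10 on chromosome 2 and 0.12 on chromosome 12, and 0.10 over all tested genes. The signed medians were close to 0 in each stretch (-0.0034, 0.02 and 0.04, and -0.00069 over all tested genes), and on chromosome 14 the values of 14 genes lay above 0 and those of 14 below. Of the 35 genes that differed by at least 0.3, 34 had the same sign in the lower and in the higher number range. Gphb5 was the exception, with -1.06 and 0.64.

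A stricter description asks that the 3 values of one genotype all lie above or all below those of the other. The levels of 17 of the 144 genes, or 11.8%, were separated in this way, 6 higher and 11 lower in EphA2 null, against 3.73% of all tested genes (1.71% higher and 2.02% lower). There were 5 such genes on chromosome 14 (1 higher and 4 lower), 4 on chromosome 2 (1 higher and 3 lower) and 8 on chromosome 12 (4 higher and 4 lower). The shares of the stretches were 17.9%, 6.45% and 14.8%. With 1 library left out, which makes separation easier, the count was 20 without wild type 1 (13.9%, against 7.19% of all tested genes), 31 without wild type 2 (21.5% against 6.26%) and 28 without wild type 3 (19.4% against 13.8%). It was 30 without EphA2 null 2 (20.8% against 7.23%) and 26 without EphA2 null 3 (18.1% against 9%). Without EphA2 null 1 it was 43, and the share of the 144 genes, 29.9%, was then close to the 26.9% of all tested genes. In edgeR's quasi-likelihood test 0 of the 144 genes had an adjusted p under 0.05 between the genotypes, where 0.00778% of all tested genes did. At an unadjusted p under 0.05 there were 33, or 22.9%, against 3.87% of all tested genes. In an edgeR model without the title number range there were 10, or 6.94%, against 1.18%. DESeq2 called 1 of the 144, Sord, against 0.124% of the genes it tested, and limma voom called 0. Without a filter on low counts edgeR called 9 of the 144, and 0.37% of the 18389 genes then tested. As the stretches were chosen on this contrast, these counts are a description only.

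**Figure D1:**
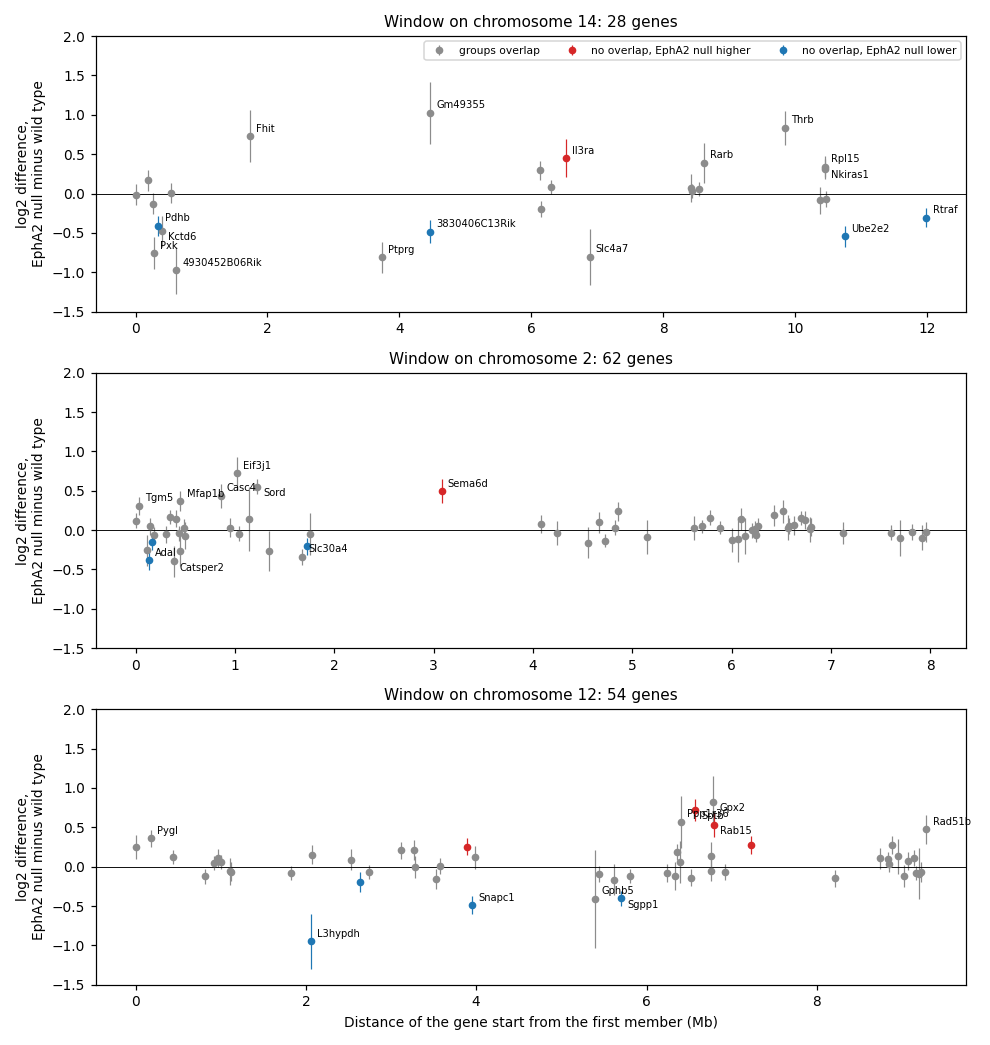
Genotype difference of each gene (log2, EphA2 null minus wild type, y axis; error bars are SE) against the distance of its start from the first gene of the stretch in Mb (x axis), for chromosomes 14, 2 and 12. Red and blue points are genes whose 3 values in one genotype lie all above or all below those of the other; named genes differ by at least 0.3, and on chromosome 2 none of them lies in the right-hand part of the stretch.

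On chromosome 14 the genes with larger differences included those of a membrane transporter, a receptor phosphatase and a nuclear receptor. Genes in this account that no naming rule picked, among them Slc4a7, Pxk, Thrb, Fhit and Rpl15, were chosen after their values were seen. Slc4a7, a sodium bicarbonate cotransporter gene (chromosome 14, 14702279 to 14799940), was at 41.9, 24.3 and 42.04 CPM in wild type 1, 2 and 3 and at 17.01, 38.8 and 15.04 CPM in EphA2 null 1, 2 and 3. Its groups overlapped, because wild type 2 was below EphA2 null 2. The difference was -0.81 ± 0.35, with -0.89 in the lower and -0.78 in the higher range of title numbers.

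Ptprg, a receptor-type tyrosine phosphatase gene (chromosome 14, 11553532 to 12242041), had levels of 36.4, 24.9 and 53.3 CPM in wild type and 18.4, 35.2 and 22.9 CPM in EphA2 null, in the same order of libraries. The difference was -0.81 ± 0.20, with -0.70 and -0.90 within the lower and higher title numbers. Again wild type 2 lay below EphA2 null 2, so the groups overlapped, while within each range EphA2 null was lower. Pxk, which encodes a protein with a phox-homology and a kinase-like domain (chromosome 14, 8098211 to 8165117), showed the same layout, with 61.1, 42.04 and 60.9 CPM in wild type, 28.8, 46.5 and 29.97 CPM in EphA2 null and a difference of -0.76 ± 0.20. The most negative value belonged to 4930452B06Rik, a gene with no role named here, at 14.5, 9.66 and 21.8 CPM against 6.60, 14.6 and 6.42 CPM and a difference of -0.98 ± 0.30. Kctd6, an adaptor of the cullin-3 ubiquitin ligase, had a difference of -0.48 ± 0.19.

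Among the higher genes was Thrb, which encodes thyroid hormone receptor beta (chromosome 14, 17660261 to 18038090). It was at 22.8, 36.7 and 29.02 CPM in wild type and at 63.1, 34.7 and 50.9 CPM in EphA2 null, a difference of 0.83 ± 0.22 (1.11 in the lower range, 0.53 in the higher). EphA2 null 1 and 3 lay above all other libraries and EphA2 null 2 lay between wild type 3 and wild type 2. Rarb, which encodes a retinoic acid receptor, had 0.39 ± 0.25 at 3.53 CPM or less in every library. It overlaps the far more abundant Top2b (203 to 231 CPM) on the opposite strand over 4624 bases. The counts' strand setting is not given, so some reads of Rarb may not be told apart from those of Top2b. The third nuclear receptor gene of the stretch, the circadian repressor Nr1d2, had -0.086 ± 0.17. This is smaller than its SE, and Nr1d2 had 0.22 in the lower and -0.42 in the higher range, so no direction is read from it. Fhit, which encodes a dinucleoside triphosphate hydrolase, had 1.83, 4.13 and 3.04 CPM against 5.87, 3.34 and 4.74 CPM and a difference of 0.73 ± 0.33.

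The 5 separated genes of chromosome 14 were mostly not those with the largest differences. Pdhb, the beta subunit of the E1 component of pyruvate dehydrogenase, was lower in every EphA2 null library than in any wild type library, with 61.95, 57.7 and 52.8 CPM against 46.8, 43.6 and 32.95 CPM and -0.41 ± 0.12. It was lowest in EphA2 null 3. The gene 3830406C13Rik was at 50.9, 47.5 and 44.1 CPM against 36.6, 35.7 and 24.9 CPM, a difference of -0.48 ± 0.14. It overlaps Gm49355 on the same strand over 19059 bases, so reads of the pair may be split between them, and Gm49355 had a difference of 1.02 ± 0.40 in the other direction at about 1 CPM.

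Ube2e2, a ubiquitin-conjugating enzyme gene, had 44.7, 40.2 and 45.6 CPM against 24.6, 38.7 and 35.04 CPM and a difference of -0.54 ± 0.13. The difference was -0.77 in the lower and -0.30 in the higher range. Without EphA2 null 1 only the higher range holds both genotypes (-0.31), and without wild type 3 only the lower one (-0.79). Genotype differences without either library, here and below, thus repeat the difference within a single range. Ube2e1, a close relative of Ube2e2, had -0.067 ± 0.11. Rtraf, whose product takes part in RNA transcription, transport and translation, had -0.31 ± 0.12, and Il3ra, the alpha chain of the interleukin-3 receptor, was the only one of the 5 that was higher, at 2.46, 3.67 and 3.24 CPM against 3.76, 4.33 and 5.49 CPM and 0.45 ± 0.24.

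Several genes of the stretch had values near 0. The topoisomerase gene Top2b had 0.056 ± 0.089, the proteasome subunit gene Psmd6 0.079 ± 0.089 and the deglycosylation enzyme gene Ngly1 0.030 ± 0.093. Top2b was at 203 to 231 CPM in the 6 libraries. These 3 genes lie between genes named above, so the values did not run in 1 direction along the stretch.

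The levels on chromosome 14 shared an order of libraries. In 15 of the 28 genes wild type 2 lay between wild type 1 and EphA2 null 1, EphA2 null 2 lay between wild type 3 and EphA2 null 3, and both ranges ran in the same direction. The share was 53.6%, against 4.2% over all tested genes, 8.06% on chromosome 2 (5 of 62) and 14.8% on chromosome 12 (8 of 54). This order was noticed in the data, and it uses the contrast on which the stretches were picked, so it is a description. Of the 15 genes, 9 ran downwards from wild type to EphA2 null and 6 upwards. Among the 16 genes of chromosome 14 that differed by at least 0.3 it held for 14, against 2 of 9 on chromosome 2, 3 of 10 on chromosome 12 and 10.9% of the 1545 such genes over the table. Beyond the stretch, at 20 to 40 Mb, 9 of 91 genes differed by at least 0.3 (9.89%), 4 were separated (4.4%) and 6 had this order (6.59%).

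The position of the middle library can be given on a scale from 0 (level with the wild type library at the end of its range) to 1 (level with the EphA2 null library at the other end), in log2 CPM. For those 16 genes on chromosome 14 the median position of wild type 2 was 0.48, and that of EphA2 null 2, between wild type 3 and EphA2 null 3, was 0.40. Both libraries thus lay near the middle of the span. On chromosome 2 the medians over 9 genes were -0.10 for wild type 2 and 0.99 for EphA2 null 2, so each lay with the other library of its own genotype. On chromosome 12 they were 0.05 and 1.62 over 10 genes. Over all tested genes with a difference of at least 0.3 they were 0.18 and 0.86. Each of wild type 1, EphA2 null 1, wild type 3 and EphA2 null 3 was an extreme of its range for at least 22 of the 28 genes of chromosome 14, whereas wild type 2 was for 3 and EphA2 null 2 for 9.

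**Figure D2:**
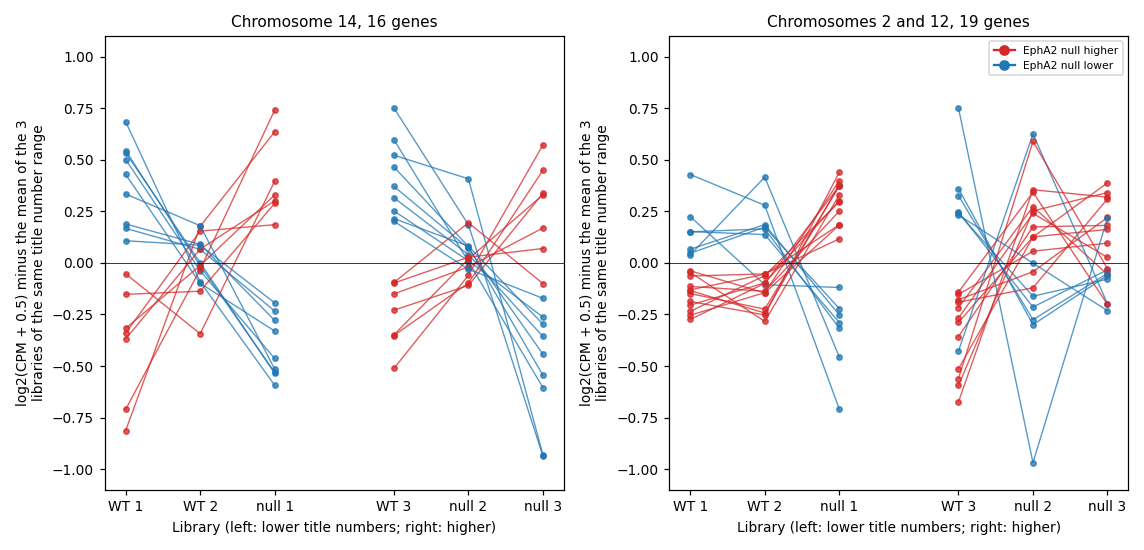
Levels of the 35 genes with a genotype difference of at least 0.3 in each library, as log2(CPM + 0.5) minus the mean of the 3 libraries of the same title number range (y axis), by library (x axis); each line is 1 gene within 1 range. On chromosome 14 (left) wild type 2 (WT 2) and EphA2 null 2 (null 2) lie near 0, between the 2 other libraries of their range, while on chromosomes 2 and 12 (right) wild type 2 lies with wild type 1.

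On chromosome 2 the differences stood in the first part of the stretch. The 27 genes that start between 121 and 124.5 Mb held all 9 genes with a difference of at least 0.3 (33.3%) and all 4 separated genes (14.8%). The 35 genes between 124.5 and 129 Mb held 0 of either, and their differences ran from -0.16 to 0.24. The edge at 124.5 Mb was placed after the values were seen. Over the whole stretch 4 of 62 genes (6.45%) were separated. On either side of it, 6 of 63 genes at 113 to 121 Mb (9.52%) and 2 of 51 at 129 to 137 Mb (3.92%) were separated. These were counted among protein coding genes with the same minimum of 1 CPM. The share of the stretch thus lay between those of its flanks. A difference of at least 0.3 was found for 10 (15.9%) and 8 (15.7%) of them, shares slightly above the 14.5% of the whole stretch.

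Sord, which encodes sorbitol dehydrogenase, the enzyme that oxidises sorbitol to fructose (chromosome 2, 122234749 to 122265340), had one of the smaller SEs among the differences of at least 0.3. It was at 43.8, 49.5 and 32.6 CPM in wild type 1, 2 and 3 and at 68.9, 47.3 and 47.6 CPM in EphA2 null 1, 2 and 3. Wild type 2 was above EphA2 null 2 and 3, so the groups overlapped, but within each title number range EphA2 null was higher, by 0.56 in the lower and 0.54 in the higher. The difference over both was 0.55 ± 0.094.

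Sema6d, a transmembrane semaphorin gene (chromosome 2, 124089969 to 124667770), was the only separated gene of chromosome 2 that was higher, at 17.02, 16.2 and 19.8 CPM against 26.5, 20.8 and 28.3 CPM, with 0.50 ± 0.15. It was 0.31 without EphA2 null 1 and 0.67 without wild type 3. The 3 that were lower were Adal, an adenosine deaminase-like gene, at 13.8, 15.02 and 11.2 CPM against 10.96, 8.36 and 8.88 CPM (-0.39 ± 0.13), the gamma-tubulin complex gene Tubgcp4 (-0.16 ± 0.10), and Bloc1s6, a subunit of a complex that forms lysosome-related organelles (-0.20 ± 0.11). The differences of Tubgcp4 and Bloc1s6 were less than 2 SE in size although their groups did not overlap. Tubgcp4 overlaps Trp53bp1 on the opposite strand over 5490 bases, so some reads of that pair may not be told apart.

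Of the other genes in the first part of the stretch, the translation initiation factor gene Eif3j1 had 0.72 ± 0.21, the transglutaminase gene Tgm5 0.31 ± 0.11, Casc4 0.43 ± 0.15 and the zinc transporter gene Slc30a4 -0.34 ± 0.10. The sperm calcium channel gene Catsper2 had -0.40 ± 0.20 at less than 7 CPM. Mfap1b, a splicing factor gene, had 0.37 ± 0.13, and its near-identical neighbour Mfap1a 0.032 ± 0.11. Reads may be shared between those 2 copies, and between Eif3j1 and its copy Eif3j2, so their values are uncertain. The most abundant gene of all 144, Mal, which encodes a membrane protein of apical transport and lies in the second part of the stretch, was at 5218, 5537 and 5089 CPM against 6098, 5064 and 4696 CPM, a difference of 0.060 ± 0.12. The disulfide isomerase gene Pdia3 and the mitochondrial creatine kinase gene Ckmt1, the next most abundant of the 62, had 0.15 ± 0.10 and 0.17 ± 0.088.

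On chromosome 12 the separated genes stood in the middle. Between 73.5 and 77.5 Mb, 6 of 23 genes were separated (26.1%) and 7 differed by at least 0.3. Between 70 and 73.5 Mb it was 2 and 2 of 18 genes, and between 77.5 and 80 Mb 0 and 1 of 13. These edges too were placed after the values were seen. Outside the stretch, 0 of 23 genes at 60 to 70 Mb and 1 of 70 at 80 to 90 Mb (1.43%) were separated. A difference of at least 0.3 was found for 4 (17.4%) and 6 (8.57%) of them, against 18.5% in the stretch.

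Sptb, which encodes beta-spectrin, a part of the membrane skeleton (chromosome 12, 76580488 to 76710547), was higher in EphA2 null within both ranges. It was at 7.09, 7.69 and 10.4 CPM in wild type and 11.4, 16.5 and 19.9 CPM in EphA2 null, with every EphA2 null value above every wild type value. The difference was 0.72 ± 0.14, with 0.60 and 0.77 in the lower and higher range, and 0.93 in a model without the range. Rab15, a small GTPase gene of recycling endosomes (chromosome 12, 76797960 to 76822908), was at 56.99, 57.4 and 39.7 CPM against 64.6, 71.8 and 76.4 CPM, with 0.53 ± 0.16. This difference was unequal between the ranges, at 0.17 in the lower and 0.89 in the higher. The values without EphA2 null 1 (0.90) and without wild type 3 (0.17) repeat these. All 24949 bases of Rab15 lie within the span of Fntb on the opposite strand. The counts' strand setting is not given and exons were not compared, so some reads of the pair may not be told apart. Fntb had -0.049 ± 0.14.

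Hif1a, the oxygen-regulated subunit of hypoxia-inducible factor 1, was at 150.3, 156 and 147 CPM against 163, 211 and 182 CPM, with 0.25 ± 0.11, 0.42 without EphA2 null 1 and 0.091 without wild type 3. The core fucosyltransferase gene Fut8 had 0.27 ± 0.11. The remaining 4 separated genes were lower. Snapc1, a subunit of the complex that starts transcription of small nuclear RNAs, was at 23.00, 23.2 and 26.5 CPM against 16.5, 17.3 and 20.3 CPM, with -0.49 ± 0.11 and nearly the same value in the lower (-0.47) and higher range (-0.49). Sgpp1, which encodes sphingosine-1-phosphate phosphatase 1, was at 85.1, 84.3 and 96.5 CPM against 62.6, 69.97 and 79.4 CPM, with -0.40 ± 0.090.

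L3hypdh, a hydroxyproline dehydratase gene, had -0.95 ± 0.35 at 6.01 CPM or less, and the short-chain dehydrogenase gene Dhrs7 -0.19 ± 0.12. The value of Dhrs7 was -0.31 without EphA2 null 1 and -0.084 without wild type 3. Hif1a and Snapc1 are neighbours among the 54 genes, and their differences had opposite signs. Among genes whose groups overlapped, the liver glycogen phosphorylase gene Pygl had 0.36 ± 0.11 at 207 to 324 CPM, the glutathione peroxidase gene Gpx2 0.82 ± 0.33 at 3.03 CPM or less, and the recombination gene Rad51b 0.48 ± 0.19. All 3222 bases of Gpx2 lie within the span of Fntb on the opposite strand, so some of its reads may not be told apart from those of Fntb.

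**Figure D3:**
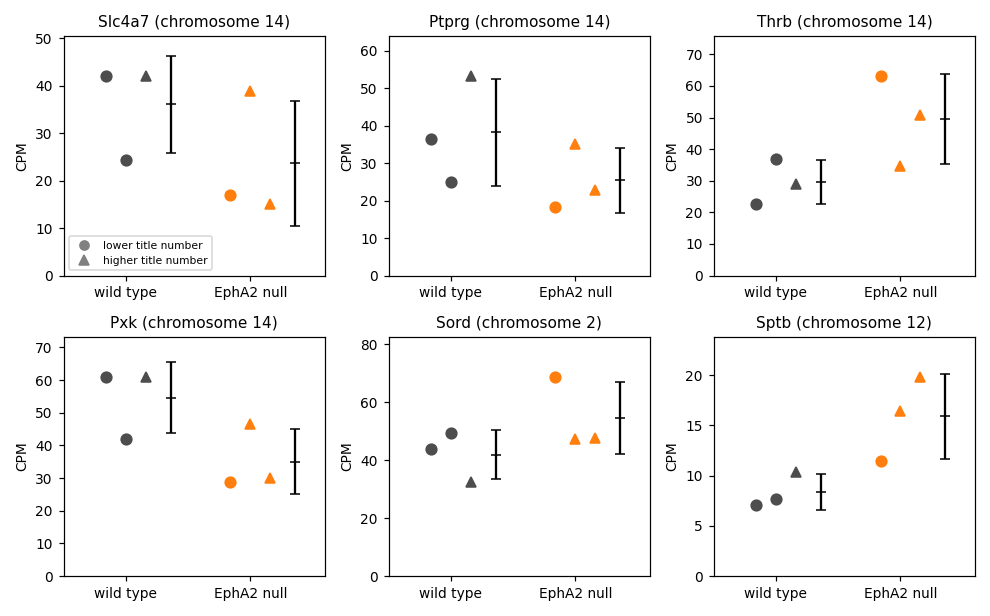
CPM (y axis, from 0) of 6 genes in each library, wild type in grey and EphA2 null in orange, with circles for lower and triangles for higher title numbers; the horizontal dash and bar beside each group are its mean and SD (n = 3). Slc4a7, Ptprg, Thrb and Pxk, on chromosome 14, have 1 library of each genotype close to the other genotype, and the Sptb values of the genotypes do not overlap.

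Promoter sequences from RefSeq (GRCm38.p6; 250 bases before to 50 after a gene start) were found by symbol for 130 of the 144 genes. The motif GGGCGG, on either strand, stood in 67.7% of them, against 65.8% of 9334 promoters of protein coding genes that were tested at 1 CPM or more on average and 36% of all 27025 promoters. For CCAAT the 3 shares were 28.5%, 39.1% and 37.9%. The TATA motif, searched as TATAAA, had shares of 6.15%, 6.76% and 14.2%. The E-box CACGTG had 7.69%, 10.3% and 7.23%, and the AP-1 motif TGANTCA had 6.15%, 4.72% and 7.87%. The median number of CG dinucleotides was 22, against 21 and 7. None of these motifs contains another. The members' promoters were thus close to those of other expressed genes in GGGCGG and CG content. A match is a description of the letters and says nothing of a factor's binding.

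The windows of 4 genes with large differences are printed to show the reference sequence at the starts of genes that differed in opposite directions or on different chromosomes. They are Ptprg and Thrb for chromosome 14, which differed in opposite directions, Sord for chromosome 2 and Sptb for chromosome 12. Their positions are chr14:11553303-11553602 on the plus strand, chr14:17660710-17661009 on the plus strand (699 bases from the GENCODE start of Thrb), chr2:122234589-122234888 on the plus strand and chr12:76710498-76710797 on the minus strand. Capitals mark GGGCGG or its reverse complement; Ptprg holds 0, Thrb 3, Sord 2 and Sptb 2, and none of the 4 windows holds any of the other motifs.
Ptprg: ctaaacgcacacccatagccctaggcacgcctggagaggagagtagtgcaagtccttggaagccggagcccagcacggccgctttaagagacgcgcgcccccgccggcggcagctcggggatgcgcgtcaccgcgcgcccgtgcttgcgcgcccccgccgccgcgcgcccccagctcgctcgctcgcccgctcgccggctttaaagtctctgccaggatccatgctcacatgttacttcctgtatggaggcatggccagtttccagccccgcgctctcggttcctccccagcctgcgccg
Thrb: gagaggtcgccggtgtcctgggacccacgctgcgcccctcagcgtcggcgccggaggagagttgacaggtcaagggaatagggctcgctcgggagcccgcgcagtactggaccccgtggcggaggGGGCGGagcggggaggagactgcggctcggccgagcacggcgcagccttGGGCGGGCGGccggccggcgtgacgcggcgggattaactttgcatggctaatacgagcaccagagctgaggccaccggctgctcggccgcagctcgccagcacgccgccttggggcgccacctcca
Sord: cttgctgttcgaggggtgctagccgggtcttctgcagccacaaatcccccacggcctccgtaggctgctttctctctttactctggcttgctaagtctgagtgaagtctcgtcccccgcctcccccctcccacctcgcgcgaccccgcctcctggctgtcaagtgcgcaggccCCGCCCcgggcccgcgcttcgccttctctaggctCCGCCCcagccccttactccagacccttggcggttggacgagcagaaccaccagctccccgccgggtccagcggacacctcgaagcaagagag
Sptb: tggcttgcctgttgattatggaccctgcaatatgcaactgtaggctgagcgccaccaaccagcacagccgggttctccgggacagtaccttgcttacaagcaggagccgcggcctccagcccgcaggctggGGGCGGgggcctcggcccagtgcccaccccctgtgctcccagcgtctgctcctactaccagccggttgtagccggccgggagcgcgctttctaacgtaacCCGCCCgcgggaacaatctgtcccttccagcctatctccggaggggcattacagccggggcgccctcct

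Some of the 144 genes share a start region with a neighbour on the other strand. There were 16 such pairs with annotated 5′ ends within 1000 bases, 7 of them with gene bodies that overlap by 18 to 529 bases. Reads within those bases may not be told apart, as the strand setting is not given. The genotype difference had the same sign in both partners of 7 pairs and opposite signs in 9. Rpl15, a protein of the large ribosomal subunit, and Nkiras1, a Ras-like inhibitor of NF-kappa-B signalling, were both higher in value, with 0.34 ± 0.13 and 0.31 ± 0.13. Rpl15 was at 49.5, 67.1 and 45.3 CPM against 78.98, 49.6 and 56.6 CPM and Nkiras1 at 12.7, 12.9 and 9.52 CPM against 17.5, 10.4 and 10.7 CPM, and both had the chromosome 14 order of libraries. Ribosomal protein genes have many near-identical copies, so the value of Rpl15 is uncertain. Thoc7, a subunit of the mRNA export complex THO, and Atxn7, a subunit of the SAGA chromatin complex, had 0.30 ± 0.12 and -0.19 ± 0.10, opposite in sign.

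Their windows are printed because 1 stretch of 300 bases holds the RefSeq start of 1 partner and the GENCODE start of the other. The GENCODE starts of Rpl15 and Thoc7 themselves lie 405 and 539 bases from the RefSeq ones, outside these windows. That of Rpl15 lies at chr14:18270937-18271236 on the minus strand and holds the GENCODE start of Nkiras1 at 18271136. That of Thoc7 lies at chr14:13961264-13961563 on the minus strand and holds the GENCODE start of Atxn7 at 13961440. Capitals again mark GGGCGG on either strand, with 2 matches for Rpl15 and 6 for Thoc7, and none of the other 4 motifs is present.
Rpl15: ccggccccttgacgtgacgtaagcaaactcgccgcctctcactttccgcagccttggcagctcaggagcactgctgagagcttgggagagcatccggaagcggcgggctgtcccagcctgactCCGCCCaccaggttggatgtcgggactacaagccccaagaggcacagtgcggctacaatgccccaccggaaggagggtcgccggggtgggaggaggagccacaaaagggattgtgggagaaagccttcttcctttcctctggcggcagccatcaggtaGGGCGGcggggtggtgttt
Thoc7: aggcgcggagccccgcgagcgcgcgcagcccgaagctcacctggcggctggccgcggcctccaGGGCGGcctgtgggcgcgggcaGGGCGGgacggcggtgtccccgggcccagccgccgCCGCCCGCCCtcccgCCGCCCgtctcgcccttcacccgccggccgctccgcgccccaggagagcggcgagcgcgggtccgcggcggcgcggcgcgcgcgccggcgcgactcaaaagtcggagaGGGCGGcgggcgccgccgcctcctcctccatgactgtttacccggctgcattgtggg

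The range of title numbers was not used to pick the stretches, so the genes could be tested on it. The test was edgeR's quasi-likelihood test with genotype as a further term, adjusted over all 12847 genes (Benjamini-Hochberg). Of the 144 genes, 64 passed an adjusted p of 0.05, or 44.4%, against 44.7% of all tested genes. Of these, 21 (14.6%) were higher in the higher title numbers, against 24.6% of all tested genes, and 43 (29.9%) were lower, against 20.1%. The median log2 difference, higher minus lower title numbers, was -0.21 over the 144 genes and -0.01 over all tested genes. Higher and lower calls were 3 and 7 on chromosome 14 (median -0.22), 7 and 24 on chromosome 2 (median -0.24) and 11 and 12 on chromosome 12 (median -0.17).

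The count depended on 1 library. Without EphA2 null 1, the only EphA2 null library with a lower title number, 8 of the 144 genes were called, 6 higher (Bcl2l11, Ppip5k1, Tmem30b, Frmd6, Syne2 and Zfyve26) and 2 lower (Mfap1b and B2m), and 8.47% of all genes. The range calls of all other genes of the stretches named below were lost without it. Without EphA2 null 1 the range difference comes from wild type libraries alone, and without wild type 3 from EphA2 null libraries alone. Range differences without either library, here and below, thus repeat the difference within a single genotype. The call of Ppip5k1 was lost without wild type 3 (0.43, edgeR adjusted p = 0.0614). Without wild type 2 and without wild type 3, 41 and 42 were called, with 27 lower in each case, against 27.2% and 28.4% of all genes. Leukocyte markers moved with the range as well: Ptprc, Cd74, Csf1r and C1qa were each called lower in the higher title numbers and Cd68 was not. Of the corneal epithelium markers, Aldh3a1 and Tkt were called higher, by 0.63 and 0.38 (edgeR adjusted p = 0.0146 and 0.0373). Krt12, Krt5, Krt14 and Pax6 were not called. Epha2 itself rose by 1.07 (edgeR adjusted p = 0.00174). Of the conjunctival markers the mucin gene Muc5ac fell by 4.95 (edgeR adjusted p = 0.00231), while the keratin genes Krt13, Krt4 and Krt19 were not called (edgeR adjusted p = 0.0726, 0.197 and 0.0812). Their part in the differences below was not tested.

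The lists below are to be read beside all tested genes, of which 24.6% were called higher and 20.1% lower. No list was tested as a set. By role, cytoskeletal, adhesion and matrix genes held 11 members of 24 listed, of which 5 (45.5%) rose and 2 (18.2%) fell, with a median of 0.14. Frmd6, a FERM domain gene of the Hippo pathway, was at 70.9, 65.2 and 58.2 CPM in the lower title numbers (wild type 1, wild type 2, EphA2 null 1) and 109.6, 113 and 103 CPM in the higher ones (wild type 3, EphA2 null 2, EphA2 null 3), with no overlap, and rose by 0.79 ± 0.10 (edgeR adjusted p = 0.00182). Syne2, which encodes nesprin-2, a protein that ties the nucleus to the cytoskeleton, rose by 0.61 ± 0.092 from 413, 369.9 and 371 CPM to 616, 551 and 549 CPM (edgeR adjusted p = 0.00252). Sptb rose by 0.59 ± 0.14 between the ranges (edgeR adjusted p = 0.0113).

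Growth and kinase signalling held 8 members of 15 listed, of which 3 rose and 3 fell (37.5% each), with a median of 0.16. The protein kinase C eta gene Prkch rose by 0.47 ± 0.10 and Nkiras1 fell by 0.58 ± 0.13 (edgeR adjusted p = 0.00728 and 0.00814). Of the genes listed for interleukin 1, antigen presentation and cell survival, 6 of 10 were members, and 1 rose and 1 fell (16.7% each). The 6 were B2m, Bcl2l11, Mertk, Il3ra, Gpx2 and Blvra, so no interleukin 1 gene was among them. Bcl2l11, which encodes the pro-apoptotic protein BIM, rose by 0.71 ± 0.14 (edgeR adjusted p = 0.0054). Without wild type 3 the difference of Bcl2l11 was 0.43 and the call was lost (edgeR adjusted p = 0.0936). B2m, the light chain of class I MHC molecules, fell by 1.13 ± 0.40 from 171, 73.2 and 82.9 CPM to 33.1, 56.2 and 67.1 CPM (edgeR adjusted p = 0.0485). Its values did not overlap between the ranges, and wild type 1 stood far above the rest. DESeq2 did not call it (adjusted p = 0.104), nor did edgeR with DESeq2 size factors (adjusted p = 0.0555). The edgeR call was lost without wild type 2, wild type 3 or EphA2 null 2 (adjusted p = 0.0515, 0.406 and 0.0586). The difference of B2m was -0.44 without wild type 3, -0.73 without wild type 1 and -1.89 without EphA2 null 1.

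Ubiquitin, proteasome and cell cycle genes held 17 members of 20 listed, of which 8 (47.1%) fell and 1 (5.88%) rose, with a median of -0.42. Bub1, a kinase of the spindle checkpoint, fell by 0.73 ± 0.12 from 31.1, 29.2 and 31.8 CPM to 18.7, 16.8 and 20.6 CPM (edgeR adjusted p = 0.00304), with no overlap. Ngly1 fell by 0.56 ± 0.093, Psmd6 by 0.50 ± 0.089, the CDK-activating kinase subunit gene Mnat1 by 0.55 ± 0.11 and Rad51b by 0.56 ± 0.18, with edgeR adjusted p of 0.00313, 0.0039, 0.00497 and 0.0366. DESeq2 did not call Rad51b (adjusted p = 0.0821). Its edgeR call was kept when EphA2 null 2 was left out and lost without any other library (adjusted p from 0.0573 to 0.272), with libraries of a title number summed (adjusted p = 0.0534) and in a model without genotype (-0.40, adjusted p = 0.154). Atxn7 was the 1 member that rose, by 0.41 ± 0.10 (edgeR adjusted p = 0.013), while Thoc7, at the same start region, fell by 0.55 ± 0.12 (edgeR adjusted p = 0.00775). The call of Atxn7 was also lost without wild type 2 (edgeR adjusted p = 0.0614), and without EphA2 null 1 its difference was 0.26. These 2 genes, of chromatin and mRNA export, stand on this list without being ubiquitin enzymes.

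Ribosome and translation genes held 7 members of 8 listed, of which 4 (57.1%) fell and 1 (14.3%) rose, with a median of -0.34. The tRNA methyltransferase gene Trmt5 fell by 0.64 ± 0.13, Eif3j1 by 0.71 ± 0.21 and Eif2s1, the alpha subunit of the initiation factor eIF2, by 0.34 ± 0.095, with edgeR adjusted p of 0.0056, 0.0247 and 0.0194. The calls of Eif3j1 and Eif2s1 were also lost without wild type 2 (edgeR adjusted p = 0.0636 and 0.0599) and without wild type 3 (adjusted p = 0.216 and 0.135). That of Eif3j1 was further lost without wild type 1 (adjusted p = 0.0548), with libraries of a title number summed (adjusted p = 0.0522) and in a model without genotype (-0.41, adjusted p = 0.246). The difference of Eif3j1 was -0.41 without wild type 3 and -1.14 without EphA2 null 1. Hypk, a co-factor of protein N-terminal acetylation, rose by 0.55 ± 0.19 (edgeR adjusted p = 0.0441) but overlaps Serf2, and DESeq2 did not call it (adjusted p = 0.0637). The edgeR call of Hypk was kept when wild type 3 was left out, with a difference of 0.84, and lost without any other library, with 0.25 without EphA2 null 1. It was also lost with libraries of a title number summed and in a model without genotype (adjusted p = 0.0722 and 0.068).

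Vesicle traffic genes held 10 members of 12 listed, of which 4 (40%) fell and 1 (10%) rose, with a median of -0.20. Zfyve26, an endosomal protein gene linked to spastic paraplegia, was at 20.9, 20.03 and 19.5 CPM against 37.5, 31.3 and 40.4 CPM and rose by 0.88 ± 0.13 (edgeR adjusted p = 0.00231). The SNARE gene Vti1b fell by 0.46 ± 0.10 (edgeR adjusted p = 0.00856). Metabolic enzymes held 16 members of 21 listed, of which 3 (18.8%) fell and 1 (6.25%) rose, with a median of -0.25. Sord fell by 0.53 ± 0.094 and the endoplasmic reticulum thioredoxin gene Tmx1 by 0.45 ± 0.090, with edgeR adjusted p of 0.0039 and 0.00569. In a model without genotype the difference of Sord was -0.34 and was not called (edgeR adjusted p = 0.159). Transporters and pumps held 4 of 12 listed, of which 1 (25%) fell, the proton pump subunit gene Atp6v1d (-0.39 ± 0.092, edgeR adjusted p = 0.0107). Slc30a4 had 0.26 ± 0.10 (edgeR adjusted p = 0.0664). Slc30a4 was called without EphA2 null 3 (0.30, edgeR adjusted p = 0.0392).

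Of the transcription factor and nuclear receptor genes, 11 of 18 listed were members, with a median of 0.07. These included the topoisomerase gene Top2b, which stands on this list without being a transcription factor gene. Of these 11, 0 were called by edgeR, against 44.7% of all tested genes. The 2 with the smallest p were Nr1d2 with 0.46 ± 0.17 (edgeR adjusted p = 0.0563) and Max, the partner of MYC, with 0.27 ± 0.10 (edgeR adjusted p = 0.0595). Nr1d2 passed in DESeq2 (adjusted p = 0.0334), and in edgeR without a filter on low counts, in a model without genotype and without EphA2 null 3 (adjusted p = 0.00496, 0.0463 and 0.00402). Its difference was 0.14 without wild type 3 (edgeR adjusted p = 0.637) and 0.76 without EphA2 null 1. Max passed in edgeR without EphA2 null 3 (0.31, adjusted p = 0.0376). At an unadjusted p under 0.05 edgeR gave 2 of the 11, and DESeq2 called 1, Nr1d2. The 54 members on no list included 8 that rose (14.8%) and 17 that fell (31.5%), with a median of -0.26. Among them Tmem30b, a subunit of lipid flippases, rose by 0.88 ± 0.13, the prominin gene Prom2 by 0.82 ± 0.15 and Plekhh1 by 0.82 ± 0.14, with edgeR adjusted p of 0.00234, 0.0039 and 0.0033. Prom2 was at 53.1, 53.3 and 59.4 CPM against 88.5, 89.9 and 131 CPM, without overlap.

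**Figure D4:**
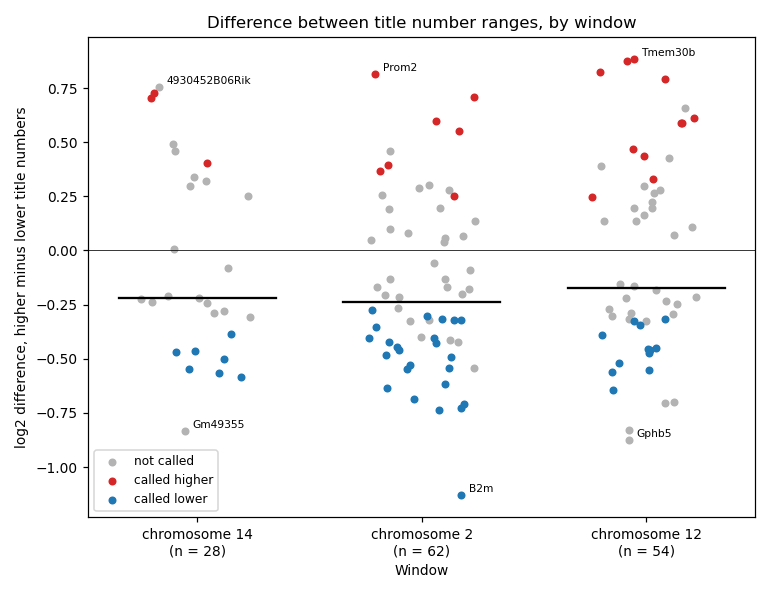
Log2 difference between title number ranges, higher minus lower (y axis), for each gene of the 3 stretches (x axis), with genes called higher in red, called lower in blue and others in grey (edgeR adjusted p of 0.05); horizontal lines are medians and points are spread sideways at random. The medians are -0.22, -0.24 and -0.17, and on chromosome 2 blue points outnumber red ones, 24 to 7.

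Side by side, the 2 contrasts gave different values for the genes named most above. Of the genes of chromosome 14 named above for a difference between the genotypes, Slc4a7 had 0.49 ± 0.35 (edgeR adjusted p = 0.278), Pxk 0.32 ± 0.20 (0.218) and Thrb -0.31 ± 0.22 (0.28) between the ranges, none of them called, while Ptprg rose by 0.72 ± 0.20 (0.0189). The call of Ptprg was lost without EphA2 null 1, wild type 2 or wild type 3, and in a model without genotype. Tmem30b and Zfyve26, with the largest rises between the ranges, had genotype differences of -0.15 ± 0.13 and -0.066 ± 0.13.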

How the data were processed

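The authors deposited 1 table of raw counts, whole numbers per Ensembl gene, for the 6 samples. The series' design text names a miRNeasy kit for total RNA and the Illumina HiSeq platform. For the aligner, counter, strand setting, genome build and annotation, nothing is given in the sources used here. Columns were matched to samples by their names, with 0 columns of other samples. Names and positions came from GENCODE M21 on GRCm38, which held 24942 of the 25006 identifiers, and 6 tested genes had no position.

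Members were chosen on CPM from plain column totals. Printed CPM use TMM factors. Counts were filtered with filterByExpr, which left 12847 genes, and fitted with edgeR 4.0.16 (glmQLFit and glmQLFTest, R 4.3.3) with terms for genotype and title number range, split at the largest gap between the numbers. The SE is the size of the log2 difference over the square root of F. P-values were adjusted over all tested genes (Benjamini-Hochberg) and called under 0.05. Differences within a range are differences of mean log2(CPM + 0.5). On simulated counts (title number range with genotype as a term, 12732 genes) the edgeR step recovered 38% of 50 genes changed 1.5-fold. It recovered 72% of those changed 2-fold, 98% of those changed 4-fold and 100% of those changed 8-fold. There were 8 false calls between the ranges and 2 between the genotypes. Only 50 genes per fold were changed, whereas 44.7% of all tested genes were called between the ranges in the real counts. These rates may therefore differ in the real counts.

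The members, the 9 role lists (which hold 90 of the 144 members), the cell type markers and the tests were chosen with earlier results of these data known. Named genes were, per stretch and direction, up to 6 separated genes and up to 4 called between the title number ranges by size, the 3 most abundant per stretch, the 2 genes on either side of the CPM threshold, and 2 per role list by smallest p between the ranges. Genes named outside this rule were chosen after their values were seen. One gene under the rule is not reported here. Alternatives were other normalisation factors, no filter, DESeq2 1.42.0, limma 3.58.1 voom, each library left out, libraries that share a title number and genotype summed, models with 1 term, other edges of the stretches and a mean of at least 5 CPM.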

Additional observations from a re-analysis of the deposited data

How the results depend on the processing

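With each stretch 2 Mb narrower on each side (66 genes) 21 genes differed by at least 0.3 between the genotypes and 12 and 15 were called higher and lower between the title number ranges. With each 2 Mb wider (266 genes) these counts were 54, 53 and 73. Over all tested genes the shares were 12%, 24.6% and 20.1%. The number of genes called between the genotypes, 0 by edgeR, was 9 without a filter on low counts (4930452B06Rik, Ptprg, Pxk, Rab15, Slc4a7, Sord, Sptb, Thrb and Ube2e2) and 1 with DESeq2, and the cause was not tested. With each library left out in turn, the count of separated genes ran from 20 to 43, that of genes differing by at least 0.3 from 33 to 45, and those called between the ranges from 6 to 23 (higher) and from 2 to 40 (lower), with the lowest values without EphA2 null 1. Fewer libraries separate more easily and give the test fewer degrees of freedom. Of the other values for counts, 59 stayed within 1.5 times the count over all 6 libraries. Of the named genes' values under alternatives, 194 genotype differences stayed within 1 SE of the value over all 6 libraries and 10 moved. For the title number range 331 values kept their side of the threshold, 59 lost the call and 6 gained it, and none changed sign. The chromosome 14 order of libraries held for 14 of 28 genes on plain column totals and on DESeq2 size factors, alternatives chosen after seeing the data. No paired analysis was possible because the genotypes share no title number and the replicate numbers were given in accession order. With 3 libraries per genotype, differences of the size of most members lie near their SE, and genes with few counts, such as Gphb5 and Gm49355, are the least certain.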
